A study of Homo sapiens with 6 samples.

Results

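The enzymes that carry pyruvate into the citric acid cycle, turn the cycle and attach lipoic acid to its dehydrogenases were examined here at the RNA level in 786-O cells, a long-established line from a human renal cancer of the clear cell type with no working VHL. The set was a list of 37 gene symbols, taken by name from the 25987 named genes of the deposited count table. It holds 10 genes of pyruvate entry and oxidation, 12 of the citric acid cycle, 6 of protein lipoylation, 3 of the branched-chain ketoacid dehydrogenase and 6 that exchange glutamate, aspartate and malate. The list includes FDX1, LIAS and the lipoylated proteins, which are known for their part in copper-dependent cell death.

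Copper cultures were labelled as wild-type 786-O under chronic copper, grown in DMEM/F12 with serum that had been loaded with copper sulfate. Their labels give 30, 31 and 32 uM for replicates 1, 2 and 3, where the series text names the first of these alone, and the 3 were taken as 1 group. Control cultures were the same line in serum handled alike with no copper added. There were 3 libraries for each group, 6 in all. Nothing in the labels says how separate the replicate cultures were, so p-values measure the spread between these samples only.

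Pyruvate crosses the inner mitochondrial membrane through the carrier of MPC1 and MPC2 and is oxidised to acetyl-CoA by the pyruvate dehydrogenase complex. The complex, and the matching complexes for 2-oxoglutarate and branched-chain ketoacids, pass the acyl group over a lipoic acid arm that is bound to a lysine of the E2 subunit. LIPT2 places octanoate on the H protein GCSH, the iron-sulfur enzyme LIAS inserts the sulfur atoms with electrons from ferredoxin (FDX1 and its reductase FDXR), and LIPT1 moves the finished lipoate to the E2 proteins. Excess copper is known to bind these lipoyl groups and make the proteins aggregate.

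The coding sequence around the lipoylated lysine is shown because that residue is what these 5 proteins share. The lysines were found by searching each translated protein for a run of 5 residues: glutamate or glutamine, serine or threonine, aspartate or valine, lysine, and alanine or threonine. DLAT, the E2 of pyruvate dehydrogenase, held 2 matches, and PDHX, DLST, DBT and GCSH held 1 each. Of 19280 coding genes searched the same way, 111 (0.58%) held the run, so a match alone does not mark a lipoyl site. The lysine codons lie in GRCh38, with GENCODE 29 exons, on chromosome 11 at 112028527 to 112028529 (exon 3 of 14) and 112033518 to 112033520 (exon 5) for DLAT and at 34947553 to 34947555 (exon 3 of 11) for PDHX. They lie on chromosome 14 at 74889950 to 74889952 (exon 6 of 15) for DLST, on chromosome 1 at 100230851 to 100230853 (exon 4 of 11) for DBT and on chromosome 16 at 81084566 to 81084568 (exon 4 of 5) for GCSH. Each line gives 45 bases of transcript, 5′ to 3′, with the lysine codon in capitals and its residue number in the precursor protein.
DLAT, lysine 132: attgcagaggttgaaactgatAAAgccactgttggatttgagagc
DLAT, lysine 259: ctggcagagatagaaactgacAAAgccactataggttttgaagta
PDHX, lysine 97: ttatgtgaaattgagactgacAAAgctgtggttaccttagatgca
DLST, lysine 110: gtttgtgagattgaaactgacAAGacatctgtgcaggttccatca
DBT, lysine 105: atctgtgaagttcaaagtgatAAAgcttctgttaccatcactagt
GCSH, lysine 107: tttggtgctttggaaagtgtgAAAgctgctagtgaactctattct
The codon was AAA at 5 of the 6 lysines and AAG in DLST.

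Library totals ran from 16301772 to 18189469 counts in copper and from 19219090 to 25079913 in control. Replicate 3 of both groups stood apart from replicates 1 and 2 along the first principal component of all tested genes, which carried 57.9% of the variance. Copper and control are therefore also given within each replicate number and without replicate 3. The renal factor PAX8 was at 122.9 to 147 CPM in the 6 libraries (CPM is the count brought to 1 common library total after TMM scaling) and KRT8 at 425 to 597 CPM, while CA9 was at most 0.122 CPM. The 4 leukocyte markers summed to 0.488 to 0.673 CPM in copper libraries (control 0.490 to 0.786 CPM). The 3 endothelial markers summed to 0.108 to 0.244 CPM in copper libraries (control 0.147 to 0.201 CPM), with PTPRC, CD3E, CD68, PECAM1 and CDH5 at 0 in at least 1 library. The 3 fibroblast markers summed to 2.27 to 4.82 CPM in copper and 1.68 to 3.29 CPM in control, most of it LUM. The copper-binding protein gene MT2A was at 631, 724 and 803 CPM in copper and at 328, 349 and 351 CPM in control, without overlap (adjusted p 0.0843 by edgeR, and 0.00516 with the replicate number as a block).

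No gene of the set passed the test between copper and control. The libraries are bulk RNA, where fewer cells of a kind and less RNA in each cell cannot be told apart. Of 37 genes, 36 had enough counts to be tested, and 0 of them had an adjusted p under 0.05 by edgeR's quasi-likelihood test, as was so for all 12944 genes tested (0% called). With replicate number as a block, again 0 of 36 passed, beside 22 of 12944 genes (0.17%). At an unadjusted p under 0.05 there was 1 gene, ME3, beside 3.52% of all genes. DESeq2 called 0 of the set, beside 27 of the 22806 genes with any count (0.118%). It gave BCKDHA no adjusted p, so not all of the 22806 could be called. The log2 fold change was positive for 20 genes and negative for 16, with a median of 0.04 beside 0.01 for all genes, and its median size was 0.09 beside 0.10.

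**Figure D1:**
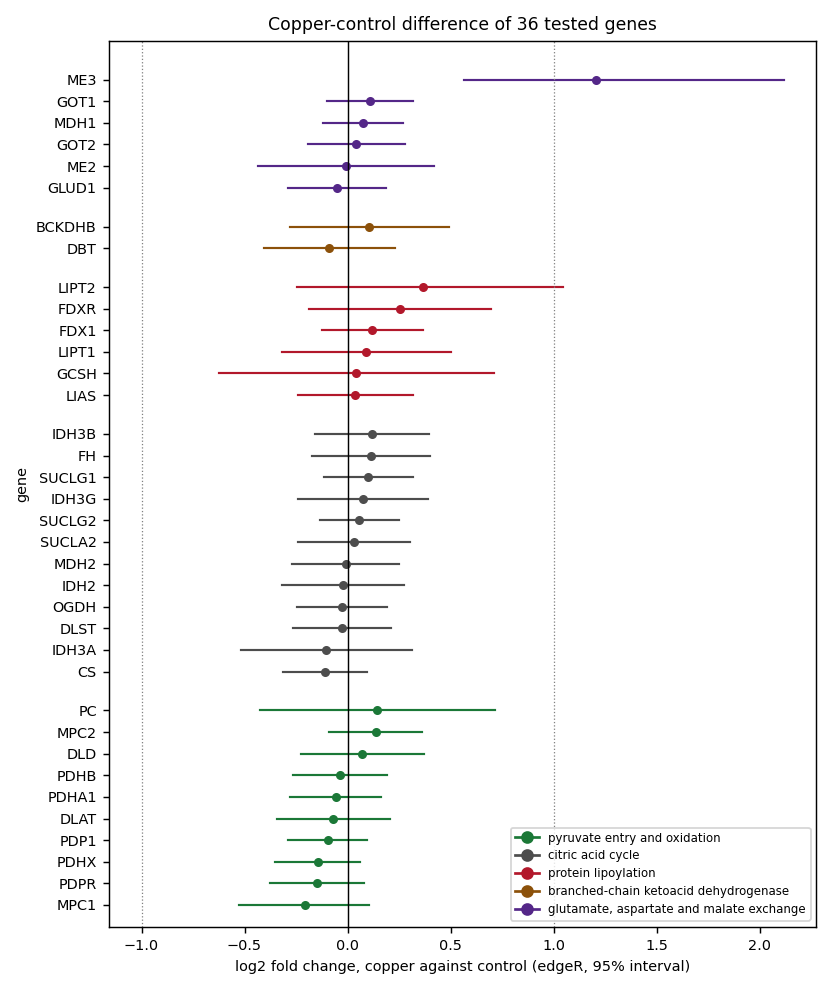
Log2 fold change of copper against control (x axis) for the 36 tested genes (y axis), grouped by role. Points are edgeR estimates, bars are 95% intervals and dotted lines mark a 2-fold difference. All intervals but that of ME3 cross 0, and ME3 alone is centred beyond 2-fold.

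The intervals show how large a difference these 6 libraries leave room for. The 95% interval lay within 2-fold either way for 34 of the 36 genes, beside 88.7% of all genes, the exceptions being ME3 and LIPT2. It lay within 1.5-fold for 31 of 36, beside 64.8% of all genes. Outside that range were ME3, LIPT2, GCSH, PC and FDXR. For most enzymes of the set a difference of 1.5-fold in RNA was thus outside the interval.

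The 3 copper values all lay above or all below the 3 control values for 6 of 36 genes (16.7%), beside 10.8% of all genes. ME3 and MDH1 were higher in copper, and PDHX, PDP1, PDPR and CS were lower. The count was 5 with RLE scaling (10.9% of all genes), 5 with upper-quartile scaling (11.1%) and 7 with total counts (11.1%). Leaving out 1 library makes such a count easier to reach: it was 16 without copper replicate 3 (33.3% of all genes), 11 without copper replicate 2 (21.2%) and 11 without control replicate 3 (20.0%).

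None of the lipoylated proteins passed the test, and their log2 fold changes ran from -0.15 for PDHX to 0.04 for GCSH. DLAT, the acetyltransferase core of pyruvate dehydrogenase (Entrez 1737; chromosome 11, 112025408 to 112064404), was at 62.6, 63.0 and 49.6 CPM in copper replicates 1, 2 and 3 and at 64.0, 60.6 and 59.3 CPM in the controls. Copper replicate 3 was the low one, and the other 5 libraries lay together. The log2 fold change of DLAT was -0.07 (SE 0.12, 95% interval -0.34 to 0.20, adjusted p 1.00 by edgeR). DLST, the succinyltransferase of the 2-oxoglutarate complex (Entrez 1743), was at 75.5, 74.0 and 81.5 CPM in copper and at 79.9, 71.0 and 84.5 CPM in control. The ranges of DLST overlapped throughout, with a log2 fold change of -0.03 (SE 0.10, adjusted p 1.00 by edgeR).

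PDHX, the lipoylated protein that anchors the E3 subunit in the pyruvate dehydrogenase complex (Entrez 8050; chromosome 11, 34916130 to 34996128), was at 52.2, 53.9 and 49.4 CPM in copper and at 55.2, 57.7 and 59.1 CPM in control. All 3 copper libraries were below all 3 controls, by a log2 fold change of -0.15 (SE 0.09, 95% interval -0.35 to 0.06, unadjusted p 0.145 and adjusted p 1.00 by edgeR). Within replicates 1, 2 and 3 the log2 difference of PDHX was -0.08, -0.10 and -0.26. PDHX shares 8.9% of its exon bases with APIP on the opposite strand, and the strand setting of the counting is not stated.

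DBT, the E2 of the branched-chain complex (Entrez 1629; chromosome 1, 100186919 to 100249834), was at 62.1, 65.2 and 46.8 CPM in copper and at 61.6, 64.1 and 59.4 CPM in control. As for DLAT, copper replicate 3 was the lowest library, and the log2 fold change was -0.09 (SE 0.14, adjusted p 1.00 by edgeR). In replicates 1 and 2 the DBT difference was 0.01 and 0.02, and in replicate 3 it was -0.34.

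GCSH, the H protein that carries lipoate in the glycine cleavage system and passes it on (Entrez 2653; chromosome 16, 81081945 to 81096395), had 34, 24 and 44 counts in copper and 47, 46 and 28 in control. In CPM it was at 2.07, 1.35 and 2.37 in copper and at 1.89, 2.26 and 1.47 in control, so the groups overlapped fully. Its log2 fold change was 0.04 (SE 0.29, 95% interval -0.62 to 0.71, adjusted p 1.00 by edgeR). The difference changed sign between pairs, at 0.11, -0.58 and 0.55. GCSH has 5 named pseudogenes, none of them listed in the count table, and 2 coding genes on its strand cover 13.9% and 14.3% of its exon bases, so its count is uncertain: reads that match several places may be missing from its count. The partner enzymes of glycine cleavage were also near the lower limit: GLDC averaged 0.543 CPM under copper against 0.477 CPM in control, and AMT 0.556 against 0.267 CPM. Neither had enough counts to be tested.

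DLD, the flavoprotein that reoxidises the lipoyl arm in all of these complexes (Entrez 1738; chromosome 7, 107891107 to 107921198), was at 146, 141 and 111 CPM in copper and at 134, 130 and 115 CPM in control. In both groups replicate 3 was the lowest library. The log2 fold change of DLD was 0.07 (SE 0.13, adjusted p 1.00 by edgeR). It was 0.13 and 0.11 in replicates 1 and 2 and -0.05 in replicate 3.

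All 6 log2 fold changes of the protein lipoylation genes were positive, and none passed the test. Their fold changes ran from 0.04 for LIAS to 0.37 for LIPT2, with a median of 0.10 beside 0.01 for all genes. That median was 0.02 without copper replicate 3, 0.21 without copper replicate 2 and 0.16 without control replicate 2. Groups did not overlap for 0 of the 6 genes, beside 10.8% of all genes. Not all stayed positive without copper replicate 3, where GCSH was at -0.13 and LIPT1 at -0.0060, nor without control replicate 2, where LIAS was at -0.03. The GCSH value was also negative in 4 other settings, down to -0.27 in replicates 1 and 2 alone. FDX1, the ferredoxin that feeds electrons to LIAS (Entrez 2230; chromosome 11, 110429948 to 110464884), was at 23.5, 24.6 and 21.6 CPM in copper and at 22.3, 21.8 and 20.0 CPM in control. The lowest copper library lay below the highest control, so the groups overlapped. For FDX1 the log2 fold change was 0.12 (SE 0.11, 95% interval -0.12 to 0.36, adjusted p 1.00 by edgeR). The difference was positive in each pair, at 0.08, 0.17 and 0.11.

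FDXR, the reductase that loads FDX1 from NADPH (Entrez 2232; chromosome 17, 74862497 to 74872994), was at 22.2, 21.1 and 33.6 CPM in copper and at 20.2, 20.6 and 23.7 CPM in control. Copper replicate 3 was well above the other 5 libraries. The log2 fold change of FDXR was 0.25 (SE 0.19, 95% interval -0.19 to 0.70, adjusted p 1.00 by edgeR). Within replicates 1, 2 and 3 it was 0.14, 0.03 and 0.49, and it was 0.01 without copper replicate 3.

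LIAS, the lipoyl synthase (Entrez 11019; chromosome 4), was at 18.8, 18.8 and 19.1 CPM in copper and at 17.8, 16.6 and 20.96 CPM in control. The 3 copper values lay inside the control range, and the log2 fold change was 0.04 (SE 0.12, 95% interval -0.24 to 0.32, adjusted p 1.00 by edgeR). LIAS shares 7.7% of its exon bases with the ribosomal protein gene RPL9 on the opposite strand. LIPT1, the transferase to the E2 proteins (Entrez 51601; chromosome 2, 99154967 to 99163137), was at 4.21, 3.59 and 4.69 CPM in copper and at 4.10, 3.63 and 3.98 CPM in control, with a log2 fold change of 0.09 (SE 0.18, adjusted p 1.00 by edgeR).

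LIPT2, the octanoyltransferase that starts the pathway (Entrez 387787; chromosome 11, 74490519 to 74493724), had 24, 18 and 27 counts in copper and 27, 16 and 21 in control. That is 1.46, 1.01 and 1.46 CPM in copper and 1.09, 0.784 and 1.10 CPM in control, and copper replicate 2 lay below 2 of the controls. At 0.37, its log2 fold change was the highest of the 6 lipoylation genes, and its interval reached from -0.25 to 1.05 (SE 0.28, adjusted p 1.00 by edgeR). Overlapping the gene on the opposite strand is AP001372.2, over 36.1% of its exon bases.

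**Figure D2:**
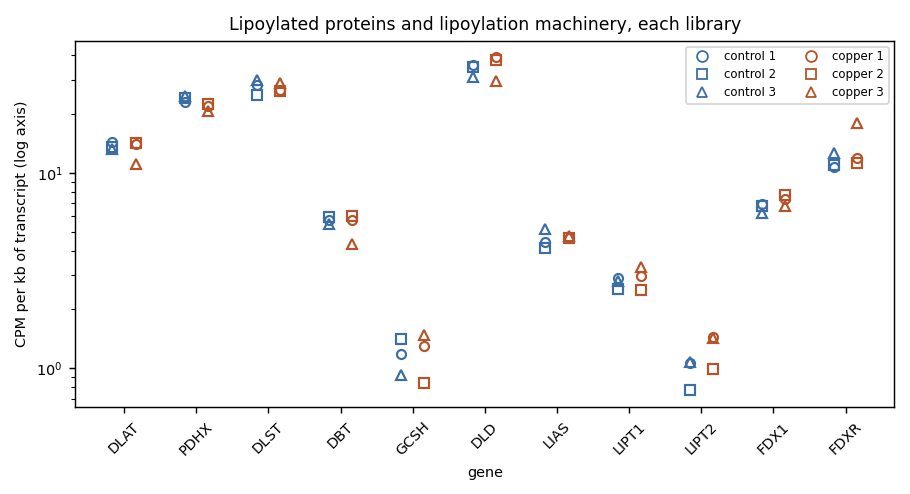
Level of each gene in the 6 libraries, in CPM per kb of transcript on a log axis, for the lipoylated proteins, DLD and the lipoylation machinery. Control libraries are blue and copper libraries orange, with a marker shape per replicate number. DLD is highest and GCSH and LIPT2 are lowest in both groups, and copper replicate 3 lies low for DLAT and DBT and high for FDXR.

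Set per kb of transcript, the lipoylation enzymes were among the lower genes of the set. In control, DLD was at 33.7 ± 2.58 CPM per kb (SD, n = 3), DLST at 27.7 ± 2.42, PDHX at 24.0 ± 0.823 and DLAT at 13.8 ± 0.542. FDXR was at 11.5 ± 1.04 CPM per kb, FDX1 at 6.66 ± 0.370, DBT at 5.71 ± 0.220 and LIAS at 4.57 ± 0.560. LIPT1 at 2.74 ± 0.173, GCSH at 1.17 ± 0.247 and LIPT2 at 0.973 ± 0.175 closed the order. Of neighbours in this order, GCSH and LIPT2 alone were closer than their summed SDs. Set per kb of all exon bases of the gene, GCSH was below LIPT2 in control, at 0.604 against 0.973. The places of LIAS and DLST are uncertain. The count table ends LIAS at 39463814 and DLST at 74892058, where the RefSeq annotation ends them at 39479506 and 74903743. Whether their counts cover the whole gene was not tested.

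At the entry of pyruvate, 3 of 10 genes had a positive and 7 a negative log2 fold change, with a median of -0.06. Of the 10, 0 were called, as was so for all 12944 genes tested. MPC1, the smaller carrier subunit (Entrez 51660; chromosome 6, 166364920 to 166382940), was at 8.78, 7.80 and 7.77 CPM in copper and at 10.1, 9.41 and 8.59 CPM in control. Copper replicate 1 lay above control replicate 3, and in every pair copper was lower. MPC1 had a log2 fold change of -0.21 (SE 0.14, 95% interval -0.53 to 0.10, adjusted p 1.00 by edgeR), the lowest of all 36 genes. MPC2, its partner (Entrez 25874; chromosome 1), was at 75.7, 69.9 and 80.5 CPM in copper and at 71.2, 64.7 and 69.6 CPM in control, with a log2 fold change of 0.14 (SE 0.10, adjusted p 1.00 by edgeR).

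The E1 subunits of pyruvate dehydrogenase, which decarboxylate pyruvate, had overlapping groups. PDHA1 was at 133 ± 7.37 CPM in copper and 139 ± 9.20 CPM in control (SD, n = 3), a log2 fold change of -0.06. PDHB was at 50.4 ± 0.860 and 51.7 ± 4.30 CPM, a log2 fold change of -0.04. For the phosphatase that switches the complex on, PDP1 and PDPR were lower in copper without overlap after TMM scaling. Neither passed the test. The other catalytic subunit, PDP2, which is outside the list, had overlapping groups. PDP2 was at 24.5, 28.8 and 36.3 CPM in copper and at 26.7, 28.4 and 36.3 CPM in control. Its log2 fold change was -0.03. PDP1, a catalytic subunit, was at 86.3, 85.7 and 82.3 CPM in copper and at 91.3, 88.5 and 92.1 CPM in control, a log2 fold change of -0.10 (SE 0.08). PDPR, the regulatory subunit, was at 46.4, 42.5 and 44.3 CPM in copper and at 46.5, 47.5 and 53.3 CPM in control, a log2 fold change of -0.15 (SE 0.10). PDPR differed by only -0.0044 in replicate 1, and an antisense gene covers 20.6% of its exon bases.

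PC, which carboxylates pyruvate to oxaloacetate (Entrez 5091; chromosome 11, 66848420 to 66907953), was at 32.5, 27.7 and 53.6 CPM in copper and at 33.5, 29.9 and 39.6 CPM in control. Replicate 3 was the highest library of both groups, and the more so in copper. The log2 fold change of PC was 0.14 (SE 0.24, 95% interval -0.43 to 0.72, adjusted p 1.00 by edgeR), and it was -0.19 without copper replicate 3.

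In the citric acid cycle itself, 6 of 12 genes had a positive and 6 a negative log2 fold change, from -0.11 to 0.12, with a median of 0.01 (-0.02 without copper replicate 3). CS, citrate synthase, which joins acetyl-CoA to oxaloacetate (Entrez 1431; chromosome 12, 56271699 to 56300330), was at 134, 134 and 122.5 CPM in copper and at 145, 139 and 138 CPM in control. The copper libraries lay below the controls in each case, by a log2 fold change of -0.11 (SE 0.09, 95% interval -0.31 to 0.09, unadjusted p 0.250 and adjusted p 1.00 by edgeR). It was the lowest fold change of the cycle. The highest was that of IDH3B, a regulatory subunit of the NAD-linked isocitrate dehydrogenase (Entrez 3420; chromosome 20, 2658395 to 2664216). IDH3B was at 61.7, 60.7 and 73.8 CPM in copper and at 58.2, 55.9 and 66.3 CPM in control, overlapping through control replicate 3, with a log2 fold change of 0.12 (SE 0.12, adjusted p 1.00 by edgeR).

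For the other subunits of that enzyme, copper replicate 3 set the direction. IDH3A, the catalytic subunit (Entrez 3419), was at 30.1, 26.7 and 18.2 CPM in copper and at 26.9, 27.5 and 26.3 CPM in control. IDH3G, a regulatory subunit (Entrez 3421), was at 60.7, 60.1 and 81.5 CPM in copper and at 63.7, 62.6 and 65.9 CPM in control. Copper replicate 3 was thus the lowest library for IDH3A and the highest for IDH3G. Their log2 fold changes of -0.10 and 0.07 became 0.08 and -0.08 without it. ACSBG1 lies opposite IDH3A over 60.3% of its exon bases.

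The remaining genes of the cycle had log2 fold changes from -0.03 to 0.11. IDH2, the NADP-linked isocitrate dehydrogenase, was at 162 ± 26.0 CPM in copper and 164 ± 6.11 CPM in control (SD, n = 3). OGDH, the E1 of the 2-oxoglutarate complex, was at 121 ± 10.1 and 124 ± 1.67 CPM. Succinate-CoA ligase had log2 fold changes of 0.10 for the shared subunit SUCLG1, 0.03 for the ADP-forming SUCLA2 and 0.06 for the GDP-forming SUCLG2. FH, fumarate hydratase, was at 121 ± 12.2 and 112 ± 12.4 CPM (log2 fold change 0.11), and MDH2, the mitochondrial malate dehydrogenase, at 280 ± 36.6 and 282 ± 3.53 CPM (-0.01). The wide copper SD of IDH2 and MDH2 came from replicate 3, where they were 0.37 and 0.31 above the mean of copper replicates 1 and 2 on the log2 scale.

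Of the branched-chain ketoacid dehydrogenase, 1 subunit was nearly without counts. BCKDHA, the E1 alpha subunit (Entrez 593; chromosome 19, 41397818 to 41425002), had 2, 1 and 2 counts in copper and 0, 0 and 3 in control. Those values are at or under 3 counts, a floor of 0.120 to 0.184 CPM, so no fold change is given. On the same strand, GENCODE 29 places a protein-coding gene, AC011462.1, over 74.5% of the exon bases of BCKDHA, and no gene of that name is listed in the count table. Whether reads were dropped for matching both genes was not tested. BCKDHB, the E1 beta subunit that pairs with it (Entrez 594), was at 28.1, 28.3 and 19.1 CPM in copper and at 23.7, 24.8 and 21.5 CPM in control. Copper replicates 1 and 2 were above and copper replicate 3 below all controls, with a log2 fold change of 0.11 (SE 0.17, adjusted p 1.00 by edgeR). In replicates 1 and 2 alone it was 0.22 (unadjusted p 0.0203, adjusted p 0.286 by edgeR), in a fit that called 111 of 12966 genes (0.856%).

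Among the genes that exchange glutamate, aspartate and malate, 4 of 6 log2 fold changes were positive (median 0.06). ME3, a mitochondrial NADP-linked malic enzyme that turns malate into pyruvate (Entrez 10873; chromosome 11, 86441108 to 86672198), had 23, 20 and 36 counts in copper and 15, 15 and 8 in control. In CPM it was at 1.40, 1.12 and 1.94 in copper and at 0.603, 0.735 and 0.419 in control, and all copper libraries lay above all controls. ME3 had a log2 fold change of 1.21 (SE 0.33, 95% interval 0.56 to 2.12). It had the smallest p of the set, 0.00433, with an adjusted p of 0.984 by edgeR without the block and 0.330 with it. ME3 was higher in 3 of 3 pairs, by 0.79, 0.39 and 1.41, and in replicates 1 and 2 alone the log2 fold change was 0.83 (adjusted p 0.295 by edgeR). With 8 to 36 counts a library, ME3 was the least abundant tested gene of the set per kb of transcript.

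ME2, the NAD-linked mitochondrial malic enzyme, was far more abundant. It was at 115, 120 and 75.8 CPM in copper and at 111, 110 and 90.4 CPM in control, replicate 3 being low in both groups, with a log2 fold change of -0.01 (SE 0.18). MDH1, the cytosolic malate dehydrogenase (Entrez 4190), was at 190, 180 and 189 CPM in copper and at 180, 172 and 179 CPM in control. The copper values lay just above the controls, and the difference was 0.08, 0.07 and 0.08 in the 3 pairs, with a log2 fold change of 0.08 (SE 0.08, adjusted p 1.00 by edgeR). GLUD1, glutamate dehydrogenase (Entrez 2746), had the lowest fold change of these 6 genes. It was at 253, 258 and 280 CPM in copper and at 272, 249 and 297 CPM in control, a log2 fold change of -0.05 (SE 0.10, adjusted p 1.00 by edgeR), and it has 5 named pseudogenes and the near-identical GLUD2. The aspartate transaminases GOT1 (cytosolic) and GOT2 (mitochondrial) had log2 fold changes of 0.11 and 0.04.

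Several counts are uncertain because other genes share exon bases with the gene and the counting is not described. Besides those named above, over 10% of the exon bases were shared with an opposite-strand gene for GOT1 (22.3%), PDHB (15.9%), IDH3G (15.2%) and MDH1 (10.1%), and with a coding gene on the same strand for LIPT1 (12.6%). GOT2 has 4 named pseudogenes and SUCLA2 has 3.

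Per kb of transcript the set was well expressed: 25 of 37 genes were above the median of all tested genes, and 6 were above the ninetieth percentile. MDH2 led in control at 128 ± 1.60 CPM per kb (SD, n = 3), followed by MDH1 at 107 ± 2.77, GLUD1 at 89.7 ± 7.90, GOT2 at 71.1 ± 6.07, SUCLG1 at 62.5 ± 3.99 and FH at 62.4 ± 6.92. MDH2, MDH1, GLUD1 and GOT2 were each apart from the next by more than their summed SDs, except GOT2 from SUCLG1, and SUCLG1 and FH were closer than theirs. Set per kb of all exon bases of the gene, MDH1 was at 94.0 and GLUD1 at 89.7 in control, so their gap depends on the length used. At the other end, BCKDHA and ME3 (0.254 ± 0.0687) were lowest.

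Partner genes were compared as ratios within a library, which do not depend on library scaling. The trends of replicate 3 with GC content and transcript length, given below, were not removed from them. ME3 has 56.8% GC over 2311 bases and ME2 has 40.6% over 9415 bases. Whether these trends moved the ratios was not tested. For 12 pairs of genes the log2 ratio per kb was taken in each library and compared by a two-sided exact permutation test, whose smallest possible p is 0.10 with 3 libraries against 3. The groups did not overlap for 3 of the 12 ratios, each at that smallest p (adjusted 0.40 over the 12), and overlapped for 9. Because the pairs were chosen after values were seen, these permutation p-values describe the separation and cannot serve as a test of it. The level of MPC1 was 0.262, 0.252 and 0.218 of that of MPC2 in copper and 0.322, 0.329 and 0.280 in control, a log2 difference of -0.34. All copper libraries were below all controls. The ratio of BCKDHB to DBT was 1.33, 1.27 and 1.19 in copper and 1.13, 1.13 and 1.06 in control, a log2 difference of 0.19, again without overlap. The ratio of ME3 to ME2 was 0.0497, 0.0381 and 0.104 in copper and 0.0221, 0.0272 and 0.0189 in control, a log2 difference of 1.37. For PDHA1 to PDHB the difference was -0.02, for SUCLA2 to SUCLG2 -0.03 and for FDX1 to FDXR -0.10. Single libraries set the sign of these: without copper replicate 3, FDX1 to FDXR was at 0.16 and SUCLA2 to SUCLG2 at 0.065, and without copper replicate 2, FDX1 to FDXR was at -0.27 and PDHA1 to PDHB at 0.019. With 1 library left out at a time, the 3 differences without overlap ranged from -0.42 to -0.27 for MPC1 to MPC2, from 0.16 to 0.23 for BCKDHB to DBT and from 0.95 to 1.68 for ME3 to ME2.

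**Figure D3:**
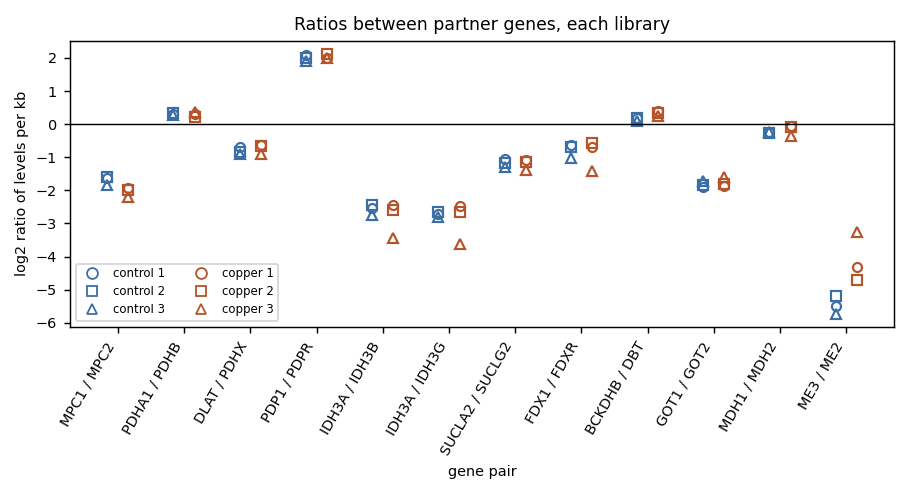
Log2 ratio of the levels per kb of 2 partner genes (y axis) for 12 pairs (x axis), in each of the 6 libraries. Blue is control, orange is copper, and marker shapes are replicate numbers. The groups separate for MPC1 to MPC2, BCKDHB to DBT and ME3 to ME2, and copper replicate 3 lies apart for both IDH3A ratios and for FDX1 to FDXR.

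The copper-control difference was spread most widely in replicate 3. Across the 36 genes its SD was 0.17 on the log2 scale in replicate 1, 0.16 in replicate 2 and 0.33 in replicate 3, beside 0.21, 0.24 and 0.34 for all genes. Differences beyond 0.5 either way were found for 1 gene each in replicates 1 and 2 (ME3 and GCSH) and for 3 in replicate 3, which were IDH3A, GCSH and ME3. The sign was the same in all 3 pairs for 18 of 36 genes, 12 higher and 6 lower, beside 34.7% of all genes.

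**Figure D4:**
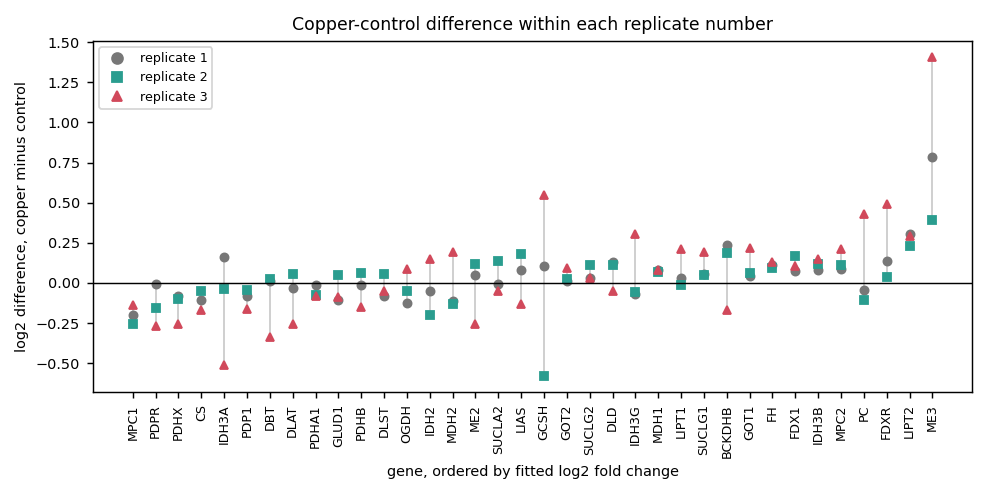
Log2 difference of copper minus control within replicate 1 (circles), 2 (squares) and 3 (triangles) for each of the 36 genes, ordered by fitted fold change. Most points lie within 0.25 of 0, replicate 3 is the farthest for IDH3A, PC and FDXR, and ME3 is above 0 in all 3.

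Replicate 3 departed from replicates 1 and 2 along the GC content of the transcripts, in copper more than in control. Among the 18 genes with a GC content above the median of the set (45.6%), 15 were higher in copper replicate 3 than in the mean of copper replicates 1 and 2, with a median of 0.16 on the log2 scale. Among the 18 at or below it, 12 were lower, with a median of -0.13. PC (61.1% GC) was at 0.83 and FDXR (63.8%) at 0.62, while ME2 (40.6%) was at -0.63 and IDH3A (43.7%) at -0.62. Across the 36 genes, which share libraries and are not independent replicates, the departure of copper replicate 3 correlated with GC content at r = 0.73 (rho 0.71) and that of control replicate 3 at r = 0.42 (rho 0.47). Over 12846 genes r was 0.55 and 0.21. The departure also went with transcript length (log2): r was -0.42 in copper and -0.0024 in control across the 36 genes, and -0.40 and -0.16 over 12846 genes. For the copper-control difference within replicate 3, rho across the 36 genes was 0.52 with GC content and -0.57 with length. With the block, and after a smooth curve over GC content and length had been taken off each library, a setting chosen after seeing the data, 0 of 36 genes were called beside 197 of 12846 genes (1.53%), and the log2 fold changes were 0.16 for FDXR, 0.12 for PC, -0.08 for IDH3A and 1.15 for ME3 (adjusted p 0.0897 by edgeR).

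**Figure D5:**
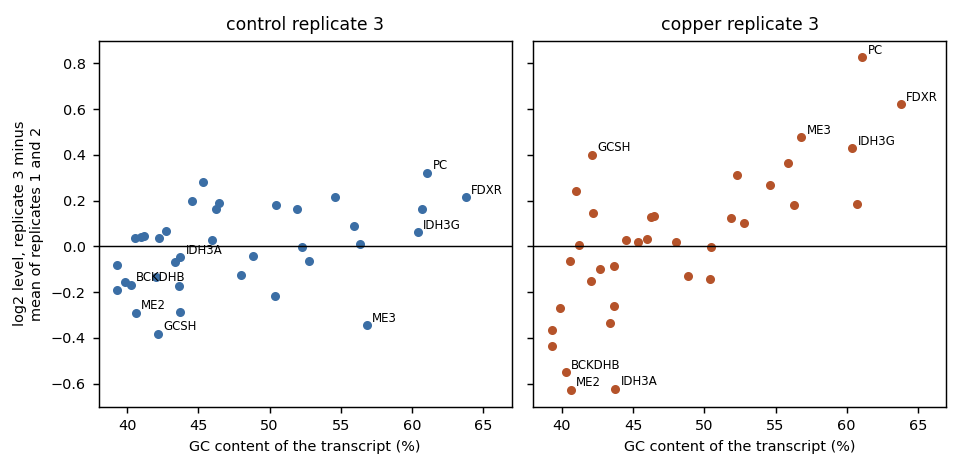
Departure of replicate 3 from the mean of replicates 1 and 2 (y axis, log2) against the GC content of the transcript (x axis, percent) for the 36 genes, in control (left) and copper (right). Points climb with GC content in copper, from ME2 at -0.63 to PC at 0.83, and less steeply in control.

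The genes next to this set in the pathway also gave no call, as was so for all 12944 genes tested. Of 18 tested genes of pyruvate and the cycle outside the list (pyruvate dehydrogenase kinases, aconitases, succinate dehydrogenase and others), 0 were called, 9 had a positive and 9 a negative log2 fold change, and 0 had groups without overlap, beside 10.8% of all genes. The smallest p was that of ME1, the cytosolic malic enzyme, at 102.9, 108.0 and 79.9 CPM in copper and 83.8, 84.0 and 76.5 CPM in control. Its groups overlapped through copper replicate 3, with 0.25 as the log2 fold change (SE 0.13, adjusted p 1.00 by edgeR). Of 12 tested genes that build the iron-sulfur clusters which LIAS needs, 0 were called and 10 had a positive log2 fold change. Their median was 0.11, beside 0.01 for all genes. Groups did not overlap for 1 of the 12 (LYRM4), beside 10.8% of all genes. ISCA1, a late-acting cluster assembly protein, had the smallest p there, with 36.5 ± 3.97 and 32.1 ± 2.01 CPM and a log2 fold change of 0.18 (SE 0.12). Of 11 tested genes of branched-chain and glutamine metabolism and mitochondrial fatty acid synthesis, 0 were called and 5 had a positive fold change. MCAT, a malonyltransferase of the mitochondrial pathway that makes the octanoate for lipoate, was the 1 gene of these 11 without overlap between groups, beside 10.8% of all genes. It was at 16.1, 15.4 and 16.2 CPM in copper and 13.6, 14.5 and 14.7 CPM in control, a log2 fold change of 0.16 (SE 0.11, adjusted p 1.00 by edgeR).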

How the data were processed

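The authors deposited raw counts per gene for 6 libraries. Per the submitters' processing notes, STAR, FastQC and edgeR were used with the build GRCh38; versions, the counting program, its strand setting and its treatment of reads that match several genes are not given in the sources used here. The kit was directional, per the labels' protocols. Of 25992 genes, 5 without a symbol (0.000814% of counts) were left out. Positions are those of the table, with starts raised by 1.

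The count analysis used edgeR 4.0.16 under R 4.3.3: filterByExpr (minimum count 10, minimum total 15), TMM scaling, the quasi-likelihood test (robust option) on a design of group alone, Benjamini-Hochberg adjustment over all tested genes, called under 0.05, and log2 fold changes with a prior count of 2. SE and 95% intervals come from the unshrunken coefficient and the test's F. Differences within a replicate number used log2(CPM + 0.5). Transcript length, GC content, overlaps and lysine codons came from GENCODE 29, 1 principal transcript per gene, matched by Entrez number for all 37 genes. Intervals cover the spread between these libraries. The scripts were tested on simulated data.

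The replicate numbers shared by both groups were checked by correlating deviations from the group means across genes. Same-numbered libraries correlated at 0.46, 0.40 and 0.65, above the minimum of 0.1. Copper replicate 1 with control replicate 2 (0.32) and copper replicate 2 with control replicate 1 (0.27) also passed that minimum. It thus cannot tell matched from mismatched numbers for replicates 1 and 2. Replicate 1 minus replicate 2 in copper correlated at only 0.15 with the same in control. The block was fitted as an alternative.

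The genes and lists were chosen with earlier results of these data known. Named in full are the lipoylated proteins with their machinery and the highest and lowest fold change of each role. The pairs for ratios, the genes printed with values for each library beyond that rule, and the length and GC setting were chosen after values were seen. Also tried were DESeq2 1.42.0, scaling by RLE, by upper quartile or by total count, no filter, a prior count of 0.125, replicates 1 and 2 alone and each library left out.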

Additional observations from a re-analysis of the deposited data

How the results depend on the processing

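The count of called genes of the set was 0 under all 16 alternatives, with a smallest adjusted p of 0.0897, for ME3. Of all genes, 12 were called with no filter, 27 by DESeq2 (54 with the block), 22 with the block, 197 with the block after removal of the GC and length curve, 111 in replicates 1 and 2 alone, 15 without copper replicate 3 and 0 in the others. For the set, leaving out each of the 6 libraries in turn gave 0 called genes throughout. With the replicate block the count was 0 and the median log2 fold change 0.0404, and the block changed no call of the set. The median of 0.0394 was 0.0623 with upper-quartile scaling and 0.0670 with total counts, under which all genes together had medians of 0.0281 and 0.0325, beside 0.00524 with TMM. It was 0.0197 with no filter, 0.0215 in replicates 1 and 2 alone and 0.0104 with the block after removal of the GC and length curve. Leaving out one replicate gave medians from 0.0188 to 0.0459. Groups did not overlap for 21 genes in replicates 1 and 2 alone (44.1% of all genes), and for 7 to 16 when one replicate was left out (14.8% to 33.3% of all genes). Of 576 values of single genes, 47 changed sign, in 18 genes, and 5 of these by at least 1 SE: IDH3G (-0.0650) and GCSH (-0.266) in replicates 1 and 2 alone, and PC, IDH3A and IDH3G without copper replicate 3. Across the fits that left out one replicate, PC ranged from -0.189 to 0.323, IDH3A from -0.259 to 0.0792 and IDH3G from -0.0850 to 0.146. The cause was not tested. The counts limit GCSH, LIPT2, ME3 and BCKDHA, each under 50 in every library.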
